A study of Mus musculus with 8 samples.

Results

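The genes described here are AP-1 subunits and other immediate early transcription factors in mouse testis. They were chosen by name, 10 genes in all: Jun, Junb, Jund, Fos, Fosb, Egr1, Nr4a1, Atf3, Klf4 and Ier2. Of these, 8 had values among the 17127 genes of the deposited table, and all 8 passed the filter on low values, which left 17126 tested genes, in both genotypes. Fos and Atf3 are not analysed here. Libraries came from whole testes of males aged 4 months, 4 of wild-type mice and 3 of Iqch mutants, labelled Iqch-/- (mutants 1, 2 and 4). Mutant 3 is listed in the labels and is not analysed here. Per the study's methods, the mutants were homozygous for CRISPR deletions that shift the reading frame in a late coding exon and were made in B6CBAF1 zygotes. The study kept a pair of edited lines and draws the RNA-seq coverage of Iqch for the line with the larger deletion, but the labels do not give the line of each library. Controls were wild-type mice with no further treatment. Values are CPM, in which the counts of each library are scaled to a sum of 1000000 over the table's genes. Those reads numbered 32859673 to 37551057 in wild-type and 32064384 to 34806129 in mutant libraries. Iqch itself was at 208 ± 11.3 CPM (SD, n = 4) in the wild type and 67.3 ± 2.25 CPM (SD, n = 3) in the mutants, and errors below are SDs over the same numbers of libraries.

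AP-1 is a dimer of basic leucine zipper (bZIP) proteins. JUN proteins pair with one another or with FOS proteins, whereas FOS proteins need a JUN-type partner, and related MAF, ATF and C/EBP proteins can join such dimers. Immediate early genes are transcribed within minutes of a stimulus, from factors such as SRF, ELK1 and CREB that kinases of the MAP kinase cascades activate, without new protein synthesis. In the testis, male mice that lack Jund are sterile, Nr4a1 responds to luteinizing hormone in Leydig cells, and Klf4 is made in Sertoli cells and round spermatids.

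Changes were tested with limma on log2(CPM + 0.1) over all tested genes, and a gene was called at a false discovery rate (FDR) below 0.01. All log2 changes are mutant minus wild type on that scale. Genes at low levels have their changes understated there. Of the 8 members, 4 were called higher in mutant testes (Jun, Junb, Jund and Ier2), against a background of 36.3% of all tested genes called higher. Nr4a1 was called lower, 1 member against a background of 14.2%. Jun and Junb also changed more than 2-fold upward, which 8.79% of all tested genes did. In 6 members the genotypes lay apart in every library. They were 4 with every mutant above every wild-type library (background 42.8%) and 2, Fosb and Nr4a1, with every mutant below (background 19.5%). The median log2 change of the 8 was 0.16, beside 0.12 over all tested genes. Rescaling the libraries by median-of-ratios size factors moved the latter median to -0.01. On that scale 3 members were called higher (background 27.0%) and 2 lower (background 25.1%), since Jund was no longer called and Fosb was.

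**Figure D1:**
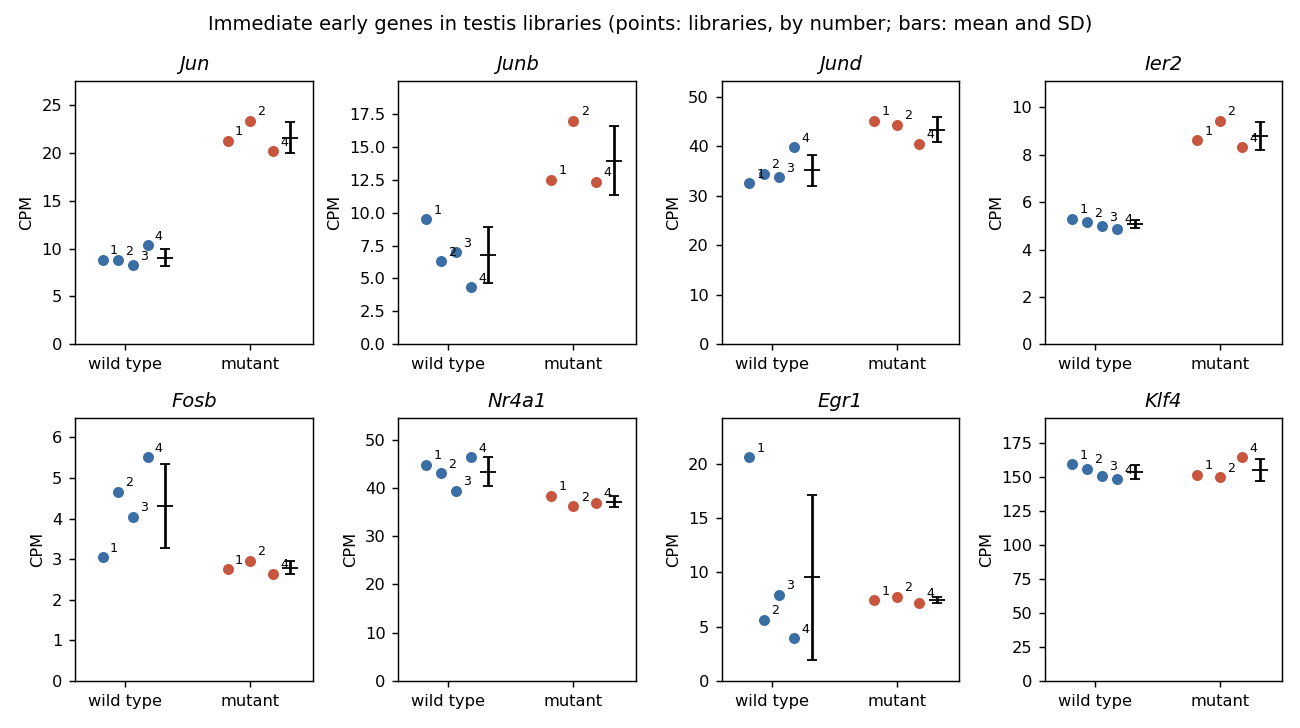
CPM of each member in every library (points, numbered by mouse; wild type in blue, mutants in red), with mean and SD as black bars; each axis starts at 0. Jun, Junb, Jund and Ier2 lie higher in all 3 mutants than in all 4 wild-type libraries, Fosb and Nr4a1 lie lower, and Egr1 stands at 20.6 CPM in wild type 1.

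These are bulk samples, in which fewer cells of a type and less RNA per cell cannot be told apart. Markers of several cell types moved with genotype. Over all tested genes 36.3% were called higher and 14.2% lower, and after size factors 27.0% and 25.1%. The counts of 1 of 4 and 2 of 4 given below are not far from the share called higher. Leydig cell markers were called higher in 5 of 6 genes, with a summed level of 997 to 1202 CPM in the controls against 4214 to 4393 CPM in the mutants. Macrophage markers were called higher in 7 of 7 genes, from 43.5 to 51.0 CPM against 151 to 173 CPM in sum. Among them Cd163 passed the minimum only through the mutants, where it had to be higher. The 6 macrophage markers that passed in both genotypes were all called higher. Sertoli cell markers were called higher in 6 of 6 genes with values, from 171 to 183 CPM against 311 to 333 CPM. In peritubular myoid cells 1 of 4 markers was called higher (66.2 to 90.1 against 76.5 to 102 CPM in sum) and in endothelial cells 2 of 4 (12.4 to 15.9 against 28.6 to 29.7 CPM). Elongating spermatid markers were called lower in 5 of 5 genes, from 19520 to 20757 CPM against 12183 to 14170 CPM. Round spermatid markers were called lower in 3 of 5 genes (893 to 980 against 790 to 840 CPM in sum), spermatocyte markers in 0 of 5 with limma (2 at an unadjusted p under 0.05), and spermatogonial markers were called higher in 3 of 5 (61.6 to 68.6 against 103 to 132 CPM). Blood markers overlapped in their sums, 30.6 to 44.7 against 36.9 to 49.3 CPM, and 1 of 4, Ptprc, which white blood cells share and which passed the minimum only through the mutants, was called higher. After size factors the counts were 4 of 6 higher for Sertoli cells and 1 of 5 for spermatogonia, and 5 of 5 lower for round spermatids and 3 of 5 for spermatocytes, with the other counts as before. No marker with values was at 0. The part of these shifts in the members' changes was not tested.

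The JUN genes encode the subunits that every classical AP-1 dimer contains. All 3 are intronless. Jun (ENSMUSG00000052684, GRCm39 chromosome 4 from 94937271 to 94940459, minus strand) was at 8.86, 8.77, 8.28 and 10.4 CPM in wild type 1 to 4 and at 21.3, 23.4 and 20.2 CPM in mutants 1, 2 and 4. The lowest mutant lay well above the highest wild-type library, and the gap was wider than the range within either genotype. The means of 9.07 ± 0.912 and 21.6 ± 1.64 CPM gave a log2 change of 1.25 (standard error 0.09, limma FDR 1.9e-07). A two-sided exact permutation test gave p = 0.029, the smallest value that 3 against 4 libraries allow. Of the other members only Ier2 reached this value. The same permutation test gave p = 0.057 for each of Junb, Jund, Fosb and Nr4a1, 0.77 for Klf4 and 0.89 for Egr1. Jun stayed called in every alternative tried. An lncRNA on the other strand, Junos, shares exon sequence with Jun. Junos averaged 2.18 ± 0.218 CPM without and 2.48 ± 0.499 CPM with the mutation and was not called. The strand setting of the read counting is not given in the sources used here.

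Junb (ENSMUSG00000052837, chromosome 8 from 85701113 to 85705359, minus strand), whose protein can oppose JUN at some promoters, had a wider spread. It was at 9.48, 6.32, 6.97 and 4.34 CPM in wild type 1 to 4 and at 12.5, 17.0 and 12.3 CPM in the mutants. The groups did not overlap, yet wild type 1 stood at over 2 times the level of wild type 4. The log2 change was 1.07 (standard error 0.21, limma FDR 6.0e-04), and leaving out any 1 library gave changes from 0.87 to 1.24, called in each case. The wild-type spread of Junb on the log2 scale was larger than that of 98.8% of tested genes. Annotated exons of Junb and of Prdx2, a peroxiredoxin gene on the other strand, overlap. Prdx2 rose from 36.9 ± 1.20 to 89.7 ± 3.81 CPM (log2 change 1.28, limma FDR 1.6e-09), so that reads of the shared stretch are uncertain, and the part of Prdx2 reads in the Junb values was not tested.

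Jund (ENSMUSG00000071076, chromosome 8 from 71151599 to 71153265, plus strand) encodes the JUN protein that most cells make without a stimulus. It was at 32.5, 34.5, 33.7 and 39.8 CPM in wild type 1 to 4 and at 45.2, 44.3 and 40.5 CPM in the mutants. Mutant 4 lay only just above wild type 4. Its log2 change was 0.31 (standard error 0.07, limma FDR 0.0027), or 0.18 above the median gene. An lncRNA on the other strand shares exon sequence with Jund. The call was lost without mutant 1 (0.27, FDR 0.015), without mutant 2 (0.29, FDR 0.013), with the replicate block (0.29, FDR 0.0158) and after size factors (0.17, FDR 0.0571). The 95% interval of its change, 0.15 to 0.46, lay below that of Jun, 1.05 to 1.45.

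The promoters of Jun, Ier2 and Jund are shown because these genes rose and because their windows held an AP-1 or CREB type site. Each sequence runs 5′ to 3′ on the gene's strand in GRCm39, from 250 bases before the GENCODE canonical start through its first 50 bases, with matches in capitals. The windows are chr4:94940410-94940709 (minus strand) for Jun, chr8:85389434-85389733 (minus strand) for Ier2 and chr8:71151349-71151648 (plus strand) for Jund.
Jun: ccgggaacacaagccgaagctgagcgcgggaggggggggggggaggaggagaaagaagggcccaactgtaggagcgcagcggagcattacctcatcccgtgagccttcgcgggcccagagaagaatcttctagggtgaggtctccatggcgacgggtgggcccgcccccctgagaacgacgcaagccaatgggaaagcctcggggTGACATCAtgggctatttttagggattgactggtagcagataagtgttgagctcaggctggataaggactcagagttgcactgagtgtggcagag
Ier2: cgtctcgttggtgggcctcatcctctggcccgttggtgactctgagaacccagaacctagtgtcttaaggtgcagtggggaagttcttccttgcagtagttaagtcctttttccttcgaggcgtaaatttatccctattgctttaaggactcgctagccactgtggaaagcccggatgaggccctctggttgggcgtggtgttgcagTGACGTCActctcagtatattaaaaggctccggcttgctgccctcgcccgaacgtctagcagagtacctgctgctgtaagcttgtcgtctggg
Jund: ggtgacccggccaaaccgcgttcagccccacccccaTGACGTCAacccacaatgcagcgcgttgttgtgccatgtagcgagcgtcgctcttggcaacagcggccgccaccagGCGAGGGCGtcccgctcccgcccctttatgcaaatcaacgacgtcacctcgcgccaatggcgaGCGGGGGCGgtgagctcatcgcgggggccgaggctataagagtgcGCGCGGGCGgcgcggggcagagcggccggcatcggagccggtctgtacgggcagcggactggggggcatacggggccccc
The motifs searched, on both strands, were TGANTCA (the classical AP-1 site), TGACGTCA (the CRE, bound by CREB, ATF and JUN dimers), TGACATCA (a variant of both), GCGNGGGCG (the EGR site) and the CArG box of SRF. No match in the windows read overlapped a match to another motif.

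Jun held TGACATCA with its first base at -45, counted from the start. Ier2 held TGACGTCA at -43, and Jund held it at -214 beside EGR sites at -138, -75 and -30. Of the other windows read, Fosb held an EGR site at -44, Nr4a1 held 1 from position 8, Klf4 held EGR sites at -220 and -203, and Junb held none of the motifs. Over 21260 promoters of protein-coding genes of the same length, 3.1% held TGACATCA, 2.45% TGACGTCA, 7.19% TGANTCA, 6.18% the EGR site and 1.56% a CArG box. Over the 13446 promoters of genes with values, as all members shown had, the shares were 2.79%, 3.09%, 5.51%, 8.28% and 1.44%. The matches describe these windows and are not evidence of binding.

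Ier2 (ENSMUSG00000053560, chromosome 8 from 85387960 to 85389483), an intronless gene for a small nuclear protein, was the most even of the members that rose. It was at 5.30, 5.16, 4.99 and 4.87 CPM in wild type 1 to 4 and at 8.62, 9.45 and 8.32 CPM in the mutants. The mutants lay above all wild-type libraries, whose spread was small. This log2 change of 0.78 (standard error 0.10, limma FDR 1.8e-05, exact permutation p = 0.029) was called in every alternative tried.

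**Figure D2:**
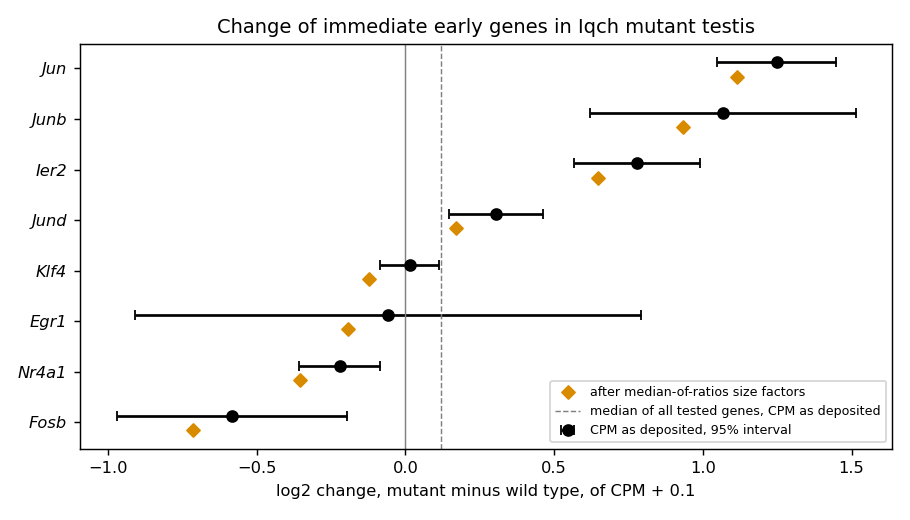
Log2 change of each member, mutant minus wild type (horizontal axis), with the 95% limma interval on the deposited CPM (black) and the value after size factors (orange diamonds); the dashed line is the median of all tested genes. Jun, Junb and Ier2 lie right of the dashed line, Fosb and Nr4a1 left of 0, and the interval of Egr1 runs from -0.91 to 0.79.

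Fosb was the only FOS gene of the list with values. Fosb (ENSMUSG00000003545, chromosome 7 from 19036621 to 19043976), a dimer partner of JUN proteins, was at 3.05, 4.66, 4.05 and 5.51 CPM in wild type 1 to 4. It was at 2.76, 2.96 and 2.64 CPM in the mutants. The mutants lay close together and below every wild-type library, of which wild type 1 was nearest to them. Its log2 change was -0.58 (standard error 0.18), and a limma FDR of 0.0122 left it uncalled. It was called after size factors (-0.71, FDR 0.00337) and without wild type 1 (-0.74, FDR 0.00136). These levels rested on 86 to 207 reads per library.

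Nr4a1 (ENSMUSG00000023034, chromosome 15 from 101151980 to 101172681), an orphan nuclear receptor, was at 44.8, 43.1, 39.4 and 46.4 CPM in wild type 1 to 4. It was at 38.4, 36.2 and 37.0 CPM in the mutants. The gap between mutant 1 and wild type 3 was small beside the range within the wild type. The log2 change was -0.22 (standard error 0.06, limma FDR 0.00782), and after size factors it was -0.36 (FDR 3.5e-04). With 1 library left out the call was kept only without wild type 3. For Nr4a1 without each of wild type 1, 2 and 4 and mutants 1, 2 and 4 the change ran from -0.24 to -0.19 and FDRs from 0.0122 to 0.0325. Leydig cell markers, which mark the cells in which Nr4a1 answers to hormone, summed to 3.97 times their wild-type level in the mutants. The median log2 change of these 6 markers was 1.25. An lncRNA on the other strand shares exon sequence with Nr4a1.

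Egr1 (ENSMUSG00000038418), a zinc finger factor induced through SRF, spread more in the wild type than between genotypes. It was at 20.6, 5.62, 7.94 and 3.91 CPM in wild type 1 to 4 and at 7.41, 7.77 and 7.19 CPM in the mutants. Wild type 1 was far above the others, and the mutants lay within the wild-type range and close to one another. The log2 change was -0.06 (standard error 0.39, limma FDR 0.908, 95% interval -0.91 to 0.79), and without wild type 1 it was 0.41 (FDR 0.101). No difference was detectable at this spread. The wild-type spread of Egr1 was larger than that of 99.8% of tested genes, whereas its mutant spread was larger than that of 29.4%.

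Klf4 (ENSMUSG00000003032, chromosome 4 from 55527139 to 55532528), a zinc finger factor, had the highest CPM of the members. It was at 159, 156, 151 and 148 CPM in wild type 1 to 4 and at 151, 149 and 164 CPM in the mutants. The groups overlapped throughout. The log2 change was 0.01 (standard error 0.05, limma FDR 0.805) with a 95% interval from -0.09 to 0.11. After size factors it was -0.12 (FDR 0.0391), with the sign turned and still not called.

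Levels of different genes were compared per kb of annotated exon. In the wild type Klf4 stood at 48.7 ± 1.55 and Jund at 21.1 ± 1.93 CPM per kb. Nr4a1 was at 3.98 ± 0.274 CPM per kb of all its exons but at 17.0 CPM per kb of its canonical transcript, so that its place depends on the length used. Ier2 followed at 3.33 ± 0.121, Junb at 2.85 ± 0.891, Jun at 2.84 ± 0.286, Egr1 at 2.12 ± 1.68 and Fosb at 0.692 ± 0.166 CPM per kb. The wild-type ranges of Ier2, Junb, Jun and Egr1 overlapped, so that their order is not set. In the mutants Jun was at 6.79 ± 0.516, Junb at 5.86 ± 1.11 and Ier2 at 5.77 ± 0.383 CPM per kb, with the range of Junb overlapping both of the others and Ier2 just under Jun.

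The make-up of the summed JUN mRNA per kb is a description of the same values. The sum ran from 25.8 to 28.9 CPM per kb in wild-type and from 35.8 to 41.1 CPM per kb in mutant libraries. The Jun share was 10.1% to 11.3% in wild-type and 17.1% to 17.9% in mutant libraries. The Jund share was 74.2% to 82.5% in wild-type and 64.7% to 69.4% in mutant libraries, whereas Junb shares overlapped, at 6.3% to 15.2% and 13.4% to 17.4%. Jund remained the most abundant JUN mRNA in every library. Fosb mRNA per kb amounted to 1.86% to 3.05% of the JUN sum in wild-type and to 1.13% to 1.18% in mutant libraries. Per kb of canonical transcript these were 2.93% to 4.94% and 1.79% to 1.86%, so that the percentage depends on the length used while the order of the genotypes does not.

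**Figure D3:**
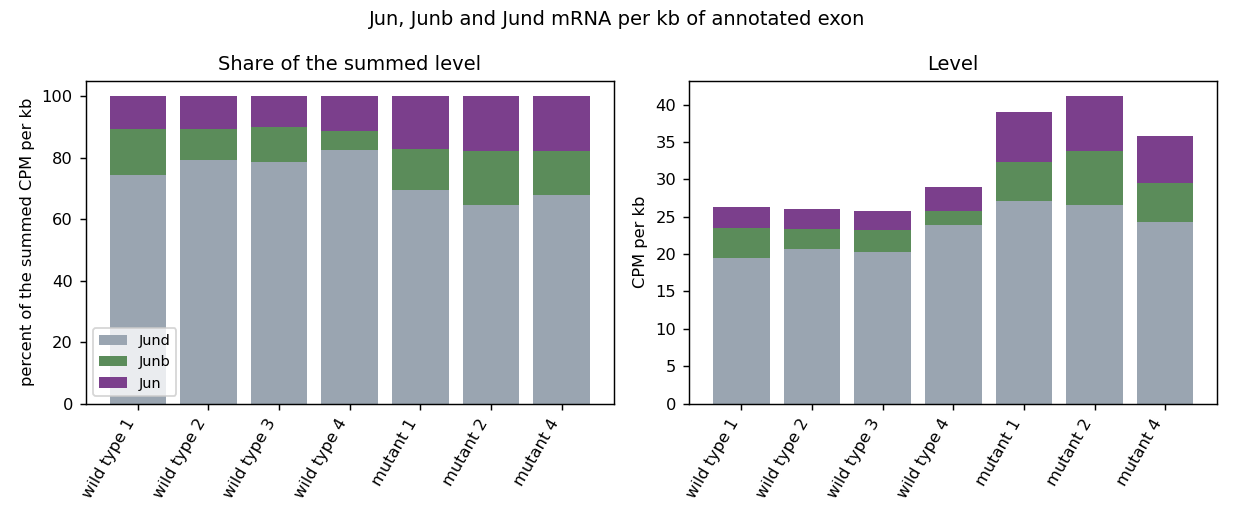
Jun, Junb and Jund mRNA in each library as a percent of their sum (left) and as CPM per kb of exon (right), stacked bars from 0. Jund is the largest part in all 7 libraries, and the Jun part is 10.1% to 11.3% in wild-type and 17.1% to 17.9% in mutant libraries.

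Set against the summed markers of somatic cells in the same library, Jun gave different pictures by cell type. Relative to Sertoli cell markers its mean ratio in the mutants was 1.34 times that in the wild type, and relative to peritubular myoid markers 2.17 times, without overlap of the groups in either. Relative to endothelial markers it was 1.19 times, with overlap. Relative to macrophage markers it was 0.70 times and relative to Leydig cell markers 0.60 times, again without overlap. The Leydig ratio depends on summing CPM. That sum was 3.97 times higher in the mutants, whereas the median log2 change of the 6 Leydig markers was 1.25, like the 1.25 of Jun. All 5 marker sums were higher on average in the mutants, from 1.10 times for peritubular myoid to 3.97 times for Leydig cells. A member that fell, or rose less than a sum, is lower relative to that sum by construction. Fosb was lower relative to each of the 5 sums, from 0.16 times for Leydig cells to 0.59 times for peritubular myoid cells. Fosb was not alone in this. The mean ratios of Egr1 (0.19 to 0.71 times), Nr4a1 (0.22 to 0.78 times) and Klf4 (0.25 to 0.92 times) were also below those of the wild type for all 5 sums. The groups overlapped for Egr1 relative to Sertoli, endothelial and peritubular myoid markers, and for Klf4 relative to peritubular myoid markers. They did not overlap in the other ratios of these genes or in those of Fosb. These ratios are descriptions, and the cells that carried the mRNAs were not measured.

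Genes of 25 further bZIP proteins that can pair with members or share their sites were also read. Of these, 18 had values, 15 were called higher and 0 lower with limma (background 36.3% and 14.2%), 0 also at an unadjusted p under 0.05, and their median log2 change was 0.61, beside 0.12 over all tested genes. Cebpb, a C/EBP factor of acute-phase and macrophage genes, passed the minimum of 2.2 CPM only through the mutants, where it had to be higher, and is described without a test. It was at 0.874 to 1.32 CPM in the controls and at 4.58 to 5.52 CPM in the mutants. Of the 17 genes that passed in both genotypes, 14 were called higher, with a median of 0.55. Maf rose by 1.46 (standard error 0.14, limma FDR 1.3e-06) from 4.60 ± 0.641 to 12.8 ± 2.13 CPM. Cebpd rose by 1.37 (standard error 0.18, limma FDR 2.2e-05). Fosl2, named after its values were seen because it is the other FOS family gene with values, rose from 4.95 ± 0.601 to 12.3 ± 1.29 CPM (log2 change 1.30, standard error 0.12, limma FDR 9.0e-07). Fosl2 mRNA per kb was 0.502 to 1.15 times that of Fosb in wild-type and 2.45 to 2.99 times in mutant libraries. Atf2, Ddit3 and Cebpg, with log2 changes of 0.03, -0.03 and -0.05, were not called. After size factors 13 of the 18 were called higher (background 27.0%), and Cebpg was called lower (-0.18, FDR 0.00866, background 25.1%). Those 13 include Cebpb, which had to be higher. Macrophage, Leydig and Sertoli cell markers rose in the same libraries, as given above.

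**Figure D4:**
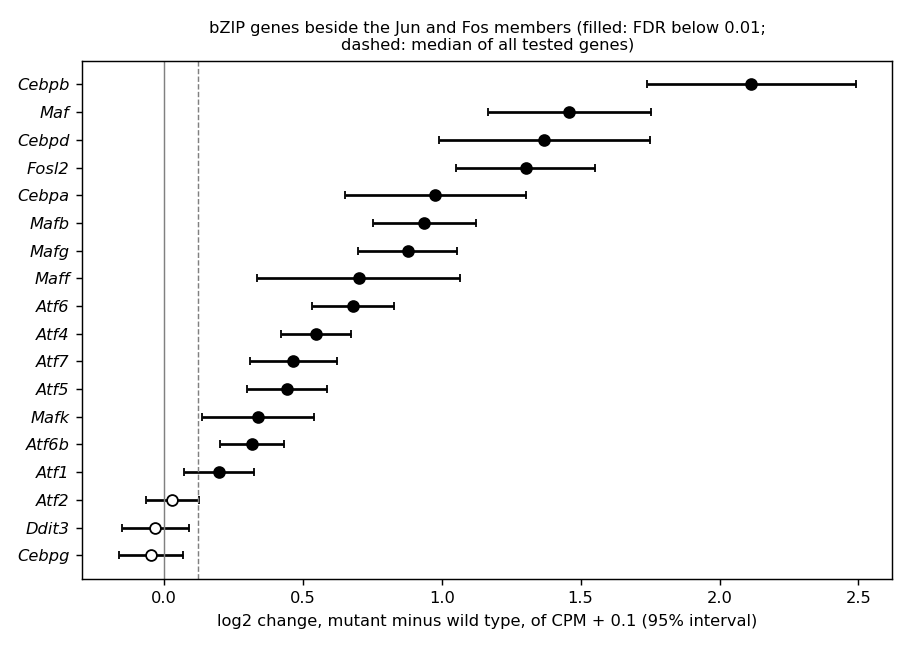
Log2 change, mutant minus wild type, with 95% limma intervals for the 18 further bZIP genes with values (filled points: FDR below 0.01); the dashed line is the median of all tested genes. All 15 filled points lie right of 0, Cebpb, which passed the minimum only through the mutants, is farthest at 2.11, and the 3 open points are Atf2, Ddit3 and Cebpg.

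A wider list of 48 immediate early genes had 43 with values, of which 27 were called higher (background 36.3%) and 2 lower (background 14.2%), with a median log2 change of 0.53 beside 0.12 over all tested genes. Cebpb, Ier3 and Ccn1 passed the minimum only through the mutants, and without these 3 the counts were 24 higher and 2 lower of 40, with a median of 0.47. Among the 40, the largest increases were in Rgs2, a brake on G protein signals (1.71, standard error 0.12, limma FDR 8.6e-08), and in Gadd45a, a growth arrest gene (1.60, standard error 0.14, limma FDR 8.2e-07). The 2 lower genes were Pim1, a kinase gene (-0.50, standard error 0.06, limma FDR 7.2e-06), and Arc, a gene best known from synapses (-0.25, standard error 0.06, limma FDR 0.00223). Arc averaged 210 ± 13.7 CPM in mutants against 250 ± 16 CPM in controls, and its call was lost without mutant 2 (FDR 0.0145). Close relatives of the members differed among themselves. Egr3 (0.09), Egr4 (0.12) and Nr4a3 (-0.17) were not called, nor was Klf2 (0.21), whereas Klf6 rose by 1.44 (standard error 0.08, limma FDR 2.4e-08) and Klf10 by 0.32 (standard error 0.07, limma FDR 0.00227, lost without mutant 4 at 0.0164). After size factors 21 of the 43 genes were called higher (background 27.0%) and 2 lower (background 25.1%). Those 21 include Cebpb, Ier3 and Ccn1, which passed the minimum only through the mutants, where they had to be higher.

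Genes that act upstream of the members were 44 genes of the MAP kinase cascades, SRF and its partners, CREB and MEF2. Of the 41 with values, 25 were called higher (background 36.3%) and 2 lower (background 14.2%), with a median log2 change of 0.28 beside 0.12 over all tested genes. After size factors these were 16 higher and 6 lower (background 27.0% and 25.1%). The largest increases were in Rps6ka2 (1.06, limma FDR 1.2e-08), Mapkapk2 (1.06, limma FDR 5.7e-08) and Rps6ka4 (0.96, limma FDR 1.6e-07), kinases that ERK or p38 activate. Map2k7, a kinase above the JUN N-terminal kinases, fell by 0.22 (limma FDR 8.8e-04), and Mapk3, which encodes an ERK, fell by 0.13 (limma FDR 0.00835). The call of Mapk3 was lost without any 1 of the 7 libraries, with FDRs up to 0.0368. Of the JUN N-terminal kinase genes, Mapk8 (0.21, limma FDR 0.00772) and Mapk9 (0.28, limma FDR 0.00117) were called higher, neither of them after size factors. The call of Mapk8 was also lost without each of wild type 1, 2 and 3 and mutants 2 and 4, with FDRs up to 0.0438. Mapk10 (-0.03) was not called. Srf, at 53.1 ± 3.14 CPM in controls and 55.9 ± 1.85 CPM in mutants, was not called.

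Wild type 1 stood apart in a few of these genes. Over the members, the bZIP genes and the wider list, 66 different genes with values, 5 were more than 1.5 times higher in wild type 1 than in any other wild-type library. They were Egr1, Ccn1, Ccn2, Cebpd and Ier3, or 7.58% of the 66, and no other wild-type library had such a gene among them. Over all tested genes the share was 0.146% for wild type 1 and 0.152% to 0.163% for the others. Ier3 in the wild type ran from 1.43 to 3.14 CPM and Ccn1, a secreted matrix protein gene, from 0.883 to 2.12 CPM. This threshold and these genes were chosen after their values were seen. Without wild type 1, 4 members and 27 genes of the wider list were called higher. In that fit 8027 genes were called in either direction, against 8640 with all libraries, and the share called higher is not given here. The 27 include Cebpb, Ier3 and Ccn1, which passed the minimum only through the mutants.

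**Figure D5:**
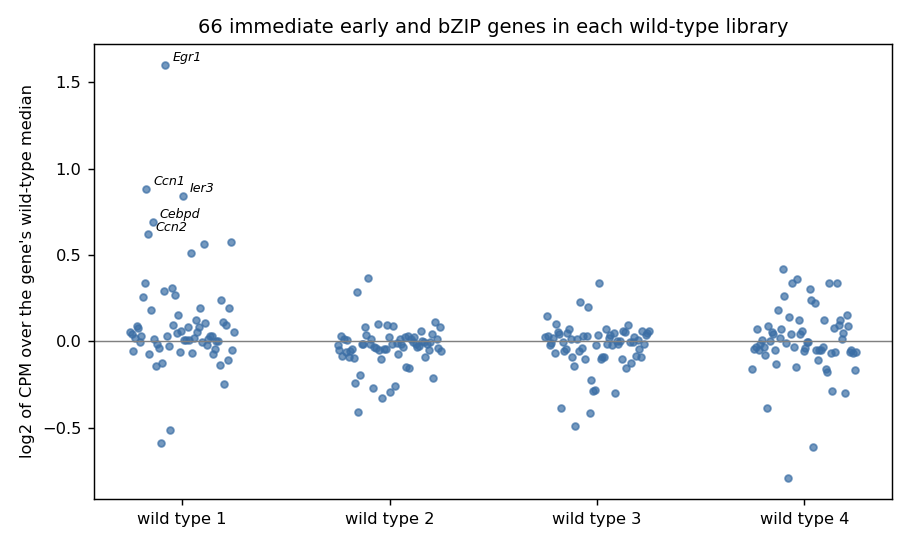
Each point is 1 of 66 immediate early and bZIP genes in a wild-type library, as log2 of its CPM over that gene's wild-type median (vertical axis). In wild type 1 the labelled genes Egr1, Ccn1, Ier3, Cebpd and Ccn2 stand above the rest.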

How the data were processed

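Total RNA of whole testes was sequenced, and the authors used Trimmomatic for trimming, Subread for mapping to GRCm39 and featureCounts for counting. Their table was limited to genes reaching 75 reads in at least 2 samples of either group, and 1 mutant was left out by them as an outlier. The strand setting and annotation release are not given in the sources used here. The authors deposited CPM values for 7 libraries, each summing to 1000000. All values (100%) were whole multiples of 1 step per library (tolerance 0.01 of a step), which, taken as 1 read, gave the read numbers in the results. A read is 0.0266 to 0.0312 CPM.

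The log2(CPM + 0.1) values of genes reaching 2.2 CPM in at least 2 samples of either group were fitted with limma 3.58.1 (R 4.3.3; moderated by eBayes with trend), with Benjamini-Hochberg adjustment over all tested genes. Libraries were also simulated with these read numbers and, beyond read counting, the same spread for every gene. Of 16932 genes tested there, the fit called 87 of 100 changed by 0.5 and 100 of 100 changed by 1 (log2), and 2 unchanged genes. Only those genes were changed in the simulation, in both directions, whereas 8640 genes were called in the data. The 2 calls are therefore not an error rate for the data. The simulated counts also do not carry over to genes with a wider spread, such as Egr1, Junb and Fosb. The spread of these 3 genes within genotypes was larger than that of 99.7%, 98.2% and 94.6% of tested genes. The limma p-values set each difference between genotypes against the spread between these libraries, moderated over all tested genes. Symbols, coordinates, exon lengths and promoter starts came from GENCODE M39 on GRCm39, in which 17045 of 17127 genes were found. Scripts ran in Python 3.11.15 with pandas 2.3.3, SciPy 1.17.1, NumPy 2.4.6 and, for figures, matplotlib 3.10.9.

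The members and lists were chosen with earlier results of these data known. Genes named are the members, Iqch, up to 3 called genes with the largest change in each direction of each list, and those nearest to Jun in profile (none for Fos, which is not analysed here). Fosl2, the JUN N-terminal kinase genes, uncalled genes, those high in wild type 1, relatives of members and genes that overlap them were added after their values were seen. Alternatives were a pseudocount of 1 or 0.01, no minimum or 5 CPM, the replicate number as a block, size factors by median of ratios, and each library left out. Promoters on 1 chromosome, and the sequence of Egr1, were not used here.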

Additional observations from a re-analysis of the deposited data

How the results depend on the processing

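Direction and call of Jun, Junb, Ier2 and Iqch were the same under every alternative run. Over all genes 8640 were called (6212 higher, 2428 lower), and 8921 after size factors (4627 higher, 4294 lower). Size factors gave 2 members lower in place of 1, 1 lower bZIP gene in place of 0, and 16 higher and 6 lower upstream genes in place of 25 and 2. Klf4 turned to -0.12 on that scale. Pseudocounts of 1 and 0.01, no minimum and a minimum of 5 CPM changed no member's call, with Fosb not tested at 5 CPM. With each library left out in turn, members called higher ran from 3 to 4, wider-list genes from 20 to 27, bZIP genes from 12 to 14 and upstream genes from 20 to 26. Over all genes 7237 to 8503 were called in these fits. Members called lower ran from 0 to 1, wider-list genes called lower from 1 to 2 and upstream genes called lower from 1 to 2. The change of Egr1 ran from -0.38 to 0.41. The change of Klf4 ran from -0.0281 to 0.0399, below 0 without wild type 4 (-0.0022) and without mutant 4.

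Labels number mice of both genotypes alike, but same-numbered libraries did not deviate together (correlations across genes of 0.03, 0.01 and -0.10 for numbers 1, 2 and 4). With the replicate block 7722 genes were called, with 3 members higher and 1 lower, and 1 lower upstream gene in place of 2. Count-based tests on the recovered reads, planned as alternatives, were not run, since the authors had filtered the table on low counts and a check of whole reads on its lowest values was not met. Low levels limit Fosb, whose mutant libraries held 86 to 96 reads, and spread limits Egr1.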

Other observations

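Genes that damp immediate early signalling were read as a list of 16, of which 13 had values. With limma 5 were called higher and 1 lower, beside 36.3% and 14.2% over all tested genes, and after size factors the counts were again 5 and 1 (27.0% and 25.1% over all genes). Among the 12 genes that passed the minimum in both genotypes, 4 were called higher and 1 lower with limma. Their median log2 change was 0.07, beside 0.12 over all tested genes. Spred1, a RAS pathway inhibitor, rose from 7.15 ± 0.254 to 15.8 ± 1.75 CPM (log2 change 1.12, standard error 0.09, limma FDR 5.1e-07), and Nab1, a corepressor of EGR proteins, by 0.97 (limma FDR 2.5e-07). Dusp7, an ERK phosphatase, passed the minimum of 2.2 CPM only through the mutants, and its mean was 1.67 CPM in the controls and 3.52 CPM in the mutants. Dusp16, a phosphatase of the JUN N-terminal kinases, fell by 0.70 (standard error 0.06, limma FDR 4.7e-07), from 54.3 ± 3.08 to 33.2 ± 1.21 CPM.

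Of 16 textbook AP-1 target genes 8 had values, of which 6 were called higher and 1 lower (36.3% and 14.2% over all tested genes), and after size factors 5 and 1. Timp1 and Plau passed the minimum only through the mutants and Mmp2 only through the wild type, so that each had to differ, and their values are given without a test. Timp1, an inhibitor of matrix proteases, was at 0.628 to 1.38 CPM in wild-type and 12.8 to 14.8 CPM in mutant libraries. Plau, a plasminogen activator gene, averaged 1.26 CPM in controls and 2.65 CPM in mutants, and Mmp2 averaged 3.28 and 1.92 CPM. Of the 5 genes that passed in both genotypes, 4 were called higher, among them Vim, the intermediate filament gene of mesenchymal and Sertoli cells (log2 change 1.24, limma FDR 2.7e-08). Spp1 was not called and ran from 1.22 to 8.91 CPM among the mutants. These genes have many regulators, and the part of AP-1 was not tested.

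The 5 tested genes whose profile over the 7 libraries was nearest to that of Jun, by root-mean-square difference of centred log2 values, were Slc46a1 (0.0343), Pdia5 (0.0452), Bst2 (0.0468), Cyp27a1 (0.0497) and Slc7a4 (0.0499).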
